A study of Homo sapiens with 6 samples.

Results

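The CCT chaperonin genes were followed in 6 RNA libraries of HEK293T cells, an SV40 T antigen-carrying line from human embryonic kidney. They are the rows of the raw count table whose Ensembl ID maps to TCP1, CCT2, CCT3, CCT4, CCT5, CCT6A, CCT6B, CCT7 or CCT8, 9 of 62700 gene IDs. All cells received a plasmid with Lipofectamine 2000, a lipid transfection reagent. The 3 GFP libraries came from cells given a GFP plasmid. The 3 editor libraries came from cells given a SpRY-ABE8e plasmid, that is, an adenine base editor on a Cas9 variant with few sequence limits on its target, together with guide RNAs labelled SA and SD for APP exon 17. The control therefore differs from the editor group both in the protein expressed and in the guides. Time after transfection, plasmid dose and the share of cells that took up the plasmid were found in none of the labels. The libraries held 110519197 to 152625595 counts. Editor libraries 2 and 3 stood close to each other over all genes (chi-square 3.16 per degree of freedom, where the remaining pairs of same-group libraries had 31.6 to 175). They differed by more than sampling noise and were kept as 2 replicates. Editor library 1 stood apart from them, at 105 and 111 on that measure, and lay nearer to GFP libraries 3 (39.4) and 2 (71.8). GFP library 1 also stood apart from GFP libraries 2 (175) and 3 (126). The calls and median fold change of the CCT genes are therefore also given without editor library 1, and separately without GFP library 1. Values below are in CPM, counts scaled to library size. All 4 epithelial markers exceeded 1 CPM, with KRT18 at 43.9 to 56.6, KRT8 at 12.2 to 15.3, CDH1 at 7.51 to 10.7 and EPCAM at 1.08 to 2.42 CPM. Of the kidney markers PAX2 stood at 4.95 to 6.54 CPM, while PAX8 and LHX1 were under 1 CPM. The 5 fibroblast markers summed to 40.2 to 43 CPM in the editor and 33.8 to 36.3 CPM in the GFP libraries, with COL1A2 and DCN under 1 CPM. The immune markers PTPRC, CD68, LYZ and CD3E were all under 1 CPM. None of the tested markers in these lists was called between groups (edgeR, adjusted p of 0.05).

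CCT, also called TRiC, is the cytosolic chaperonin of eukaryotes. A pair of stacked rings, each built of 8 related but different subunits in a fixed order, encloses a folding chamber that closes as ATP is hydrolysed. Its best known clients are actin and tubulin, and it also folds many WD40-repeat proteins. Each ring needs 1 copy of each subunit. The genes are TCP1, which encodes the alpha subunit CCT1, and CCT2, CCT3, CCT4, CCT5, CCT6A, CCT7 and CCT8, which encode the beta to theta subunits. CCT6B encodes a second zeta subunit that is known as a testis form. Heat shock factor HSF1 is known to act on CCT genes in human cells.

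The sequences bear on how well reads of these genes can be told apart. Pairs of members shared 48.8% to 55.2% of their coding bases, except CCT6A and CCT6B, which shared 80.5%. Of the 1541 words of 50 bases in the CCT6B coding sequence, 0 occurred in a CCT6A transcript, so their reads differ over any such stretch. The first 60 coding bases (GENCODE release 29) show 15 differences, which are in capitals.
CCT6A: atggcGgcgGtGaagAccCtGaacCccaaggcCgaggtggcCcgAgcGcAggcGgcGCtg
CCT6B: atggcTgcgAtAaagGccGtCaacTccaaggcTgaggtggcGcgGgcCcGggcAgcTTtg
CCT8 and its processed pseudogene CCT8P1 on chromosome 1 were much closer, with 95.7% identity over 1658 aligned bases. The first 60 coding bases of CCT8 and the matching bases of CCT8P1 differ at 2 places, in capitals.
CCT8: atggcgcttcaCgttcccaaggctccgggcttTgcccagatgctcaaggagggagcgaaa
CCT8P1: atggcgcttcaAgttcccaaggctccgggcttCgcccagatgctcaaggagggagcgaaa
Of the 50-base words of CCT8P1, 10.4% occurred unchanged in a CCT8 transcript, so reads of up to 50 bases within them cannot be assigned to either by sequence. Longer stretches were not examined.

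Promoters are shown for TCP1, which gave the complex its first name, for CCT8, which had the lowest fold change of the members, and for CCT6B, the member with the lowest level. RefSeq promoters on GRCh38.p14, from 250 bases before to 50 bases after a start, were found for 8 of 9 genes, with 10 starts in all. They were searched on both strands for the paired heat shock element repeats GAANNTTC and TTCNNGAA, for CCAAT, the GC box GGGCGG, the cyclic AMP element TGACGTCA, the E-box CACGTG and the NRF1 motif. Matches are in capitals, and CCAAT reads ATTGG and GGGCGG reads CCGCCC on the other strand. The CCT6B window also holds the start of ZNF830 (34961530), a gene on the opposite strand. Its matches can therefore not be credited to CCT6B alone.
TCP1 (chr6:159789553-159789852, minus strand): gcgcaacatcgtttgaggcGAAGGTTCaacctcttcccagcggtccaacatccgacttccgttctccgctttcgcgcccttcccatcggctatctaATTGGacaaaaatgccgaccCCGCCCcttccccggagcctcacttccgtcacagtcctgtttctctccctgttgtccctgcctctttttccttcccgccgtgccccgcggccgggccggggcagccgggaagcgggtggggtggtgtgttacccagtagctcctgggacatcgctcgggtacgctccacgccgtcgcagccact
CCT8 (chr21:29073599-29073898, minus strand): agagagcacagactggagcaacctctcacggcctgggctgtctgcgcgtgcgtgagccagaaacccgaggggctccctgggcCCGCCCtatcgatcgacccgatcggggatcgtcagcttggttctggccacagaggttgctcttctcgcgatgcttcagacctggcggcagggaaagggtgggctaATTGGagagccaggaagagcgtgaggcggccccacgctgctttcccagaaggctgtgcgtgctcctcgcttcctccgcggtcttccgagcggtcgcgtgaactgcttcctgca
CCT6B (chr17:34961411-34961710, minus strand): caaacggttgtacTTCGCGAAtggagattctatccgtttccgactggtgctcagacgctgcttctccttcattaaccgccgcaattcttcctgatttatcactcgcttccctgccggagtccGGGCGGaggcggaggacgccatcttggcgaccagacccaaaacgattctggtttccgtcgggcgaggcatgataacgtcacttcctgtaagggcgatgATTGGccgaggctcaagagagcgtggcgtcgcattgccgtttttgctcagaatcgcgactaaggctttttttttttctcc
A gene was counted if any of its starts matched, while the share over all is per promoter, so the units differ and favour genes with several starts. CCAAT was found for 5 of 8 genes (CCT2, CCT3, CCT6B, CCT8 and TCP1) and in 34.6% of all 35116 promoters of the table. The GC box was found for 6 of 8 genes and in 45% of all promoters. GAANNTTC was found for CCT2 and TCP1 (6.77% of all promoters) and TTCNNGAA for CCT4 and CCT6B (7.74%). TGACGTCA, CACGTG and the NRF1 motif matched 0 of 8 genes, and 1.85%, 7.26% and 1.24% of all promoters. A match is a run of letters and not evidence of binding. The windows of CCT3, CCT5, CCT6B and CCT7, and the later CCT2 window, lie wholly inside the GENCODE genes used for positions below. For CCT5 the sole window (10250287 to 10250586) lies past the GENCODE gene start (10249921). The lack of matches for CCT5 therefore does not describe the sequence before that gene start.

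The obligate subunit genes were among the most abundant messages of these cells. By mean CPM over 6 libraries CCT4 held rank 101 of 19831 protein-coding genes and CCT2, the lowest of the 8, rank 385. The 8 genes together took 0.462% to 0.521% of all counts. CCT6B held rank 11518, with 129 to 384 reads per library against 46753 to 57990 for CCT6A, which is 0.26% to 0.693% of the CCT6A reads. Of the 7 germ cell markers, 7 were under 1 CPM, and their summed level was 0.131 to 0.307 CPM in editor and 0.124 to 0.241 CPM in GFP libraries.

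**Figure D1:**
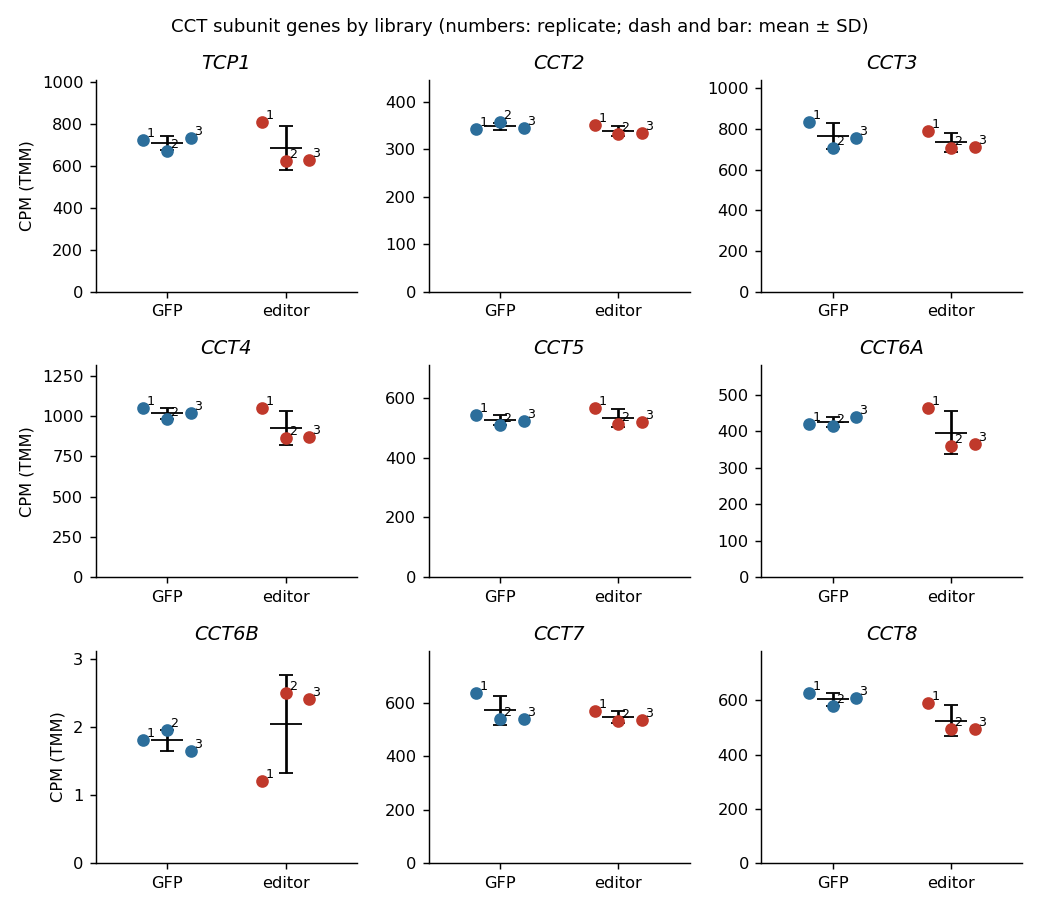
CPM (y axis, from 0, TMM-scaled) of each CCT gene in the 3 GFP (blue) and 3 editor (red) libraries, with the replicate number beside each point and the mean ± SD as a dash and bar. The groups overlap for every gene shown, and editor library 1 lies above editor libraries 2 and 3 for the 8 obligate subunits but below them for CCT6B.

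The question put to these genes was whether the subunits of 1 complex moved together between the editor and the GFP libraries. No difference was detected for any of them. Of the 9 members, all 9 passed the low-count filter and 0 were called by edgeR at an adjusted p of 0.05, where 0.0244% of all 20511 genes tested were called. At an unadjusted p under 0.05 there were 0 of 9 members, against 8.68% of all genes, and DESeq2 and limma-voom also called 0 of 9. The groups did not overlap for 0 of 9 members, against 14.8% of all genes (6.12% with the editor libraries lower). The log2 fold change, editor minus GFP, was below 0 for 7 of 9 members and for 45.7% of all genes. Its median was -0.06 over the members and 0.025 over all genes. In RNA from whole cultures, a smaller share of cells that express a gene and less RNA per cell cannot be told apart.

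On the side of the ring whose subunits bind ATP tightly in yeast lie TCP1, CCT4, CCT2 and CCT5. TCP1 stood at 807, 623 and 628 CPM in editor libraries 1, 2 and 3 and at 723, 672 and 732 CPM in the GFP libraries. The single highest and both lowest values were editor libraries, so the GFP values lay inside the editor range. The log2 fold change came to -0.05 (SE 0.13) with a 95% interval from -0.34 to 0.24 (edgeR, adjusted p = 0.937). CCT4, whose mutation causes a sensory neuropathy in the rat, stood at 1050, 861 and 870 CPM in the editor libraries and at 1052, 982 and 1017 CPM in the GFP libraries. Editor libraries 2 and 3 were below all 3 GFP libraries, and editor library 1 was level with the highest of them. Its log2 fold change came to -0.13 (SE 0.12) with a 95% interval from -0.39 to 0.13 (edgeR, adjusted p = 0.768). CCT2, mutated in a form of inherited childhood blindness, was the steadiest subunit, at 350, 331 and 334 CPM against 342, 357 and 345 CPM, with a log2 fold change of -0.04 (SE 0.10, 95% interval -0.26 to 0.18). CCT5, mutated in a human hereditary sensory neuropathy, stood at 567, 511 and 520 CPM in the editor libraries and at 542, 509 and 523 CPM in the GFP libraries. It was the sole obligate subunit whose log2 fold change lay above 0, at 0.02 (SE 0.10, 95% interval -0.21 to 0.25).

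On the other side of the ring lie CCT7, CCT8, CCT6A and CCT3. CCT8, the theta subunit, had the lowest log2 fold change of the members. It stood at 590, 493 and 494 CPM in the editor libraries and at 626, 579 and 609 CPM in the GFP libraries. Editor library 1 fell between the GFP values and editor libraries 2 and 3 below them. The log2 fold change came to -0.20 (SE 0.11) with a 95% interval from -0.46 to 0.06 (edgeR, adjusted p = 0.644). CCT6A, the common zeta subunit, stood at 465, 360 and 364 CPM in the editor libraries and at 420, 414 and 440 CPM in the GFP libraries. As for TCP1, the editor libraries held the highest and the lowest values, and CCT6A had -0.10 as its log2 fold change (SE 0.13, 95% interval -0.39 to 0.19). CCT3, the gamma subunit, ranged from 705 to 790 CPM in the editor and from 708 to 834 CPM in the GFP libraries. CCT7, the eta subunit, ranged from 532 to 571 CPM and from 540 to 636 CPM, and GFP library 1 was the highest library for both genes. Their log2 fold changes were -0.06 (SE 0.11) for CCT3 and -0.07 (SE 0.11) for CCT7.

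CCT6B stood at 1.21, 2.49 and 2.41 CPM in the editor libraries and at 1.81, 1.96 and 1.64 CPM in the GFP libraries. Editor library 1 held the lowest value and editor libraries 2 and 3 the highest, the reverse of CCT6A. The log2 fold change came to 0.18 (SE 0.26) with a 95% interval from -0.41 to 0.78 (edgeR, adjusted p = 0.877). With 129 reads in editor library 1, this interval was the widest of the 9. Over the 8 obligate subunits the 95% intervals reached from -0.46 to 0.25, so larger log2 changes of any of them lay outside its own interval. The authors' deposited table gives log2 fold changes of -0.20 for CCT8, -0.13 for CCT4 and 0.14 for CCT6B, with adjusted p-values from 0.712 to 0.96 over the 9 genes.

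**Figure D2:**
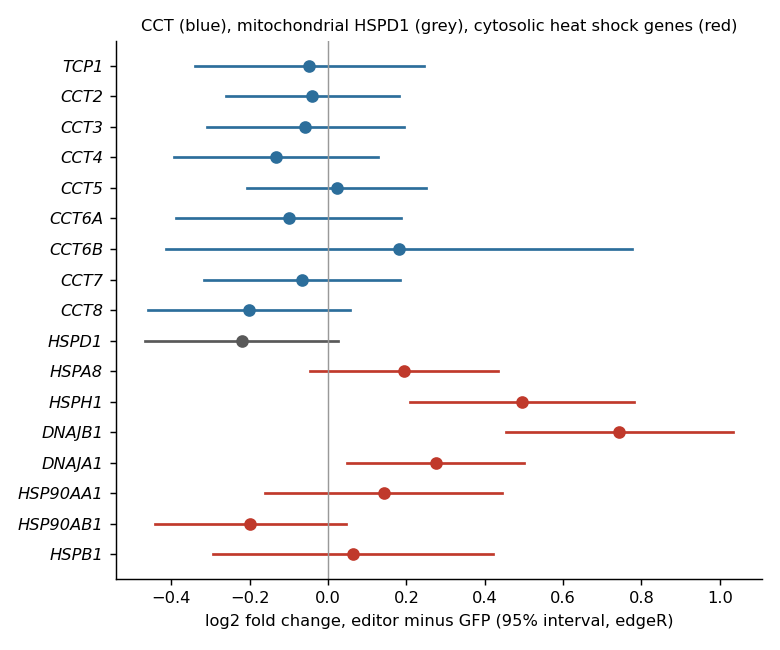
Log2 fold change, editor minus GFP (x axis), with its 95% interval from edgeR for the 9 CCT genes (blue), the mitochondrial chaperonin gene HSPD1 (grey) and 7 cytosolic heat shock genes (red); HSPA6, at 7.05, lies outside the axis and is not drawn. The intervals, which are not adjusted for the number of genes, include 0 for all 9 CCT genes, for HSPD1 and for HSPA8, HSP90AA1, HSP90AB1 and HSPB1. They lie above 0 for DNAJB1 (0.74), HSPH1 (0.49) and DNAJA1 (0.28), and edgeR called none of the genes drawn (adjusted p = 0.373, 0.458 and 0.528 for these 3).

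The range among the 3 editor libraries was wider, for each of the 8 obligate subunits, than the difference between groups. All 8 obligate subunits were higher in editor library 1 than in editor libraries 2 and 3, an order that 43.2% of all genes showed. The difference between editor library 1 and the mean of the other two ranged from a log2 of 0.08 for CCT2 to 0.37 for TCP1. Editor libraries 2 and 3 differed by a log2 of at most 0.03 for any of the 8. The summed level of the 8 genes was 5190.3, 4416 and 4457 CPM in the editor libraries and 5175, 4762 and 4960.5 CPM in the GFP libraries. The means were 4688 ± 436 and 4966 ± 207 CPM (SD, n = 3 each). Without editor library 1, all 8 obligate subunits had a log2 fold change below 0 (median -0.17), against 49.1% of all genes, and 0 of 9 members were called (lowest adjusted p = 0.114 for CCT8 by edgeR). In that fit 1% of all genes were called. Its editor group held libraries 2 and 3 alone, which lay close to each other, so its spread within the group may be understated. Without GFP library 1 the median over the 9 members was -0.048, against -0.135 without editor library 1, and 0 members were called. For 6 of 8 subunits editor libraries 2 and 3 both lay below all 3 GFP libraries, as they did for 18% of all genes.

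**Figure D3:**
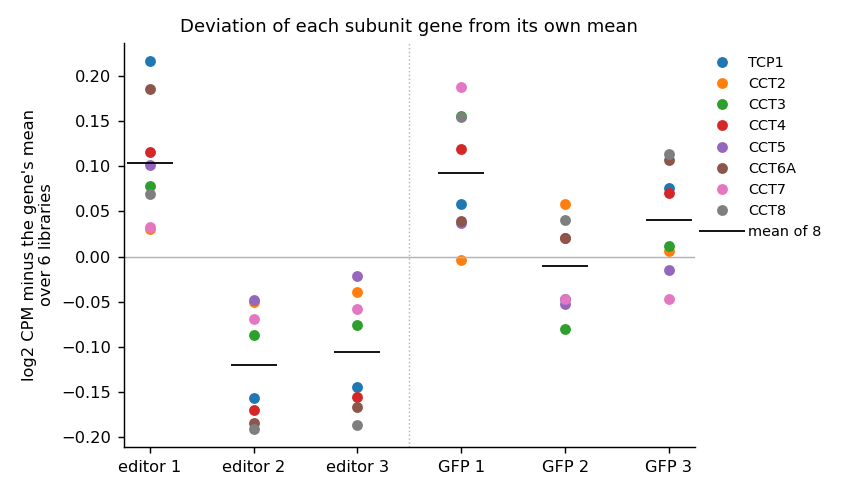
Log2 CPM of each obligate subunit gene minus its own mean over 6 libraries (y axis) by library (x axis), with the mean of the 8 genes as a dash. The mean stood at 0.10 in editor library 1, at -0.12 and -0.11 in editor libraries 2 and 3, and at 0.09, -0.01 and 0.04 in the GFP libraries.

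Among the genes closest in pattern to the mean of the 8 subunits were SNX3, TMEM59, SPG21 and TRIT1. Likeness was the root mean square difference of centred log2 CPM over the 6 libraries, among 6163 other genes whose average log2 CPM reached 5. SNX3, a sorting nexin of endosomes, differed by 0.013, and TRIT1, which modifies transfer RNA, by 0.017. The subunits themselves differed from their own mean by 0.036 for CCT4 to 0.071 for CCT2, and the median of the other genes was 0.15. Each subunit is part of that mean, which lowers its difference, so these values do not compare like with like.

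The complex uses its subunits in equal number, but the counts of their messages per length were not equal. How far overlapping genes and pseudogenes, described below, altered the counts of single subunits was not tested. Levels were compared as CPM per kb of annotated exon. In the GFP libraries CCT4 was highest at 359 ± 12.3 CPM per kb and CCT2 lowest at 80.5 ± 1.85 (SD, n = 3 each). Between them lay CCT3 at 191 ± 15.9, CCT8 at 181 ± 7.21, CCT7 at 159 ± 15.4, TCP1 at 144 ± 6.55, CCT6A at 109 ± 3.46 and CCT5 at 89.8 ± 2.82 CPM per kb. The ranges of CCT3 and CCT8, and those of CCT8 and CCT7, overlapped, and all other neighbours in this order were apart. The same order held in all 3 GFP libraries. In the editor libraries CCT4 was again highest at 328 ± 37.7 and CCT2 lowest at 78.3 ± 2.40 CPM per kb, and CCT3, CCT6A and CCT5 kept their places. CCT6B stood at 0.470 ± 0.166 CPM per kb in editor and 0.416 ± 0.0362 in GFP libraries.

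The size of this imbalance depended on the length used. CCT4 exceeded the lowest subunit by 4.47-fold on average in the GFP and 4.18-fold in the editor libraries per kb of exon, but by 2.9-fold and 2.71-fold per kb of coding sequence. The exons of a gene that are annotated in any transcript add up to 2830 bases for CCT4 and 5839 for CCT5, whereas the coding lengths of the members span 1590 to 1668 bases. CCT4 was highest in every library by each of the 3 lengths. CCT2 was lowest by exon and coding length, and CCT5 or CCT6A by the longest transcript. CCT5 held the seventh place of 8 in every library by exon length. By coding length it held the sixth in all 3 GFP libraries and in editor library 1, and the fifth in editor libraries 2 and 3.

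**Figure D4:**
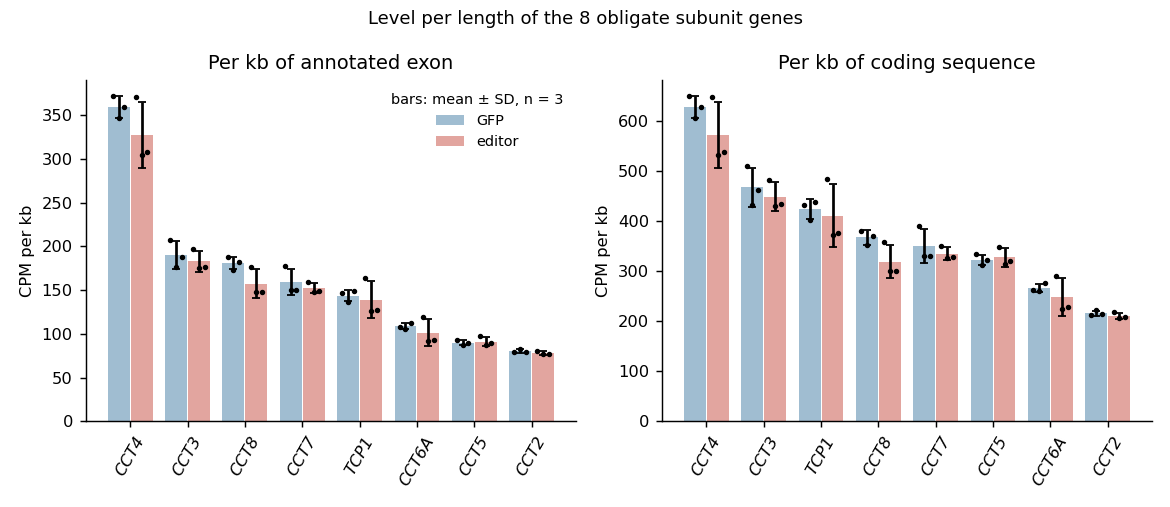
CPM per kb (y axis, from 0) of the 8 obligate subunit genes in GFP (blue) and editor (red) libraries, per kb of annotated exon (left) and per kb of coding sequence (right), with bars for the mean ± SD of 3 libraries and points for libraries. CCT4 is highest and CCT2 lowest in both panels, and the span narrows on the right.

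The make-up of the set was described by shares. Shares of the summed CPM of the 8 genes need no length and do not depend on library scaling. The share of CCT8 was 12.1%, 12.2% and 12.3% in the GFP libraries and 11.4%, 11.2% and 11.1% in the editor libraries. All 3 editor libraries were below all 3 GFP libraries, editor library 1 included. The share of CCT5 was 10.5%, 10.7% and 10.5% in the GFP libraries against 10.9%, 11.6% and 11.7% in the editor libraries, and every editor library was above. The share of CCT4 was 20.5% ± 0.15 in the GFP and 19.7% ± 0.42 in the editor libraries (SD, n = 3 each), also without overlap, though its share per kb did overlap. The other 5 shares overlapped. These are descriptions of 8 shares that add up to a whole, so they are not independent, and 3 libraries against 3 cannot give an exact permutation p below 0.1. Among all genes, 13.8% did not overlap between groups when set against the same sum. The subunits are parts of that sum and the other genes are not, so this percentage is no like background for the 8 shares. The ratio of CCT5 to CCT8 reads was 0.858 to 0.88 in the GFP and 0.961 to 1.05 in the editor libraries. This pair holds the largest rise (log2 0.108, CCT5) and the largest fall (-0.120, CCT8) in share. The parting of its ratio therefore follows from the shares above and is no further result.

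**Figure D5:**
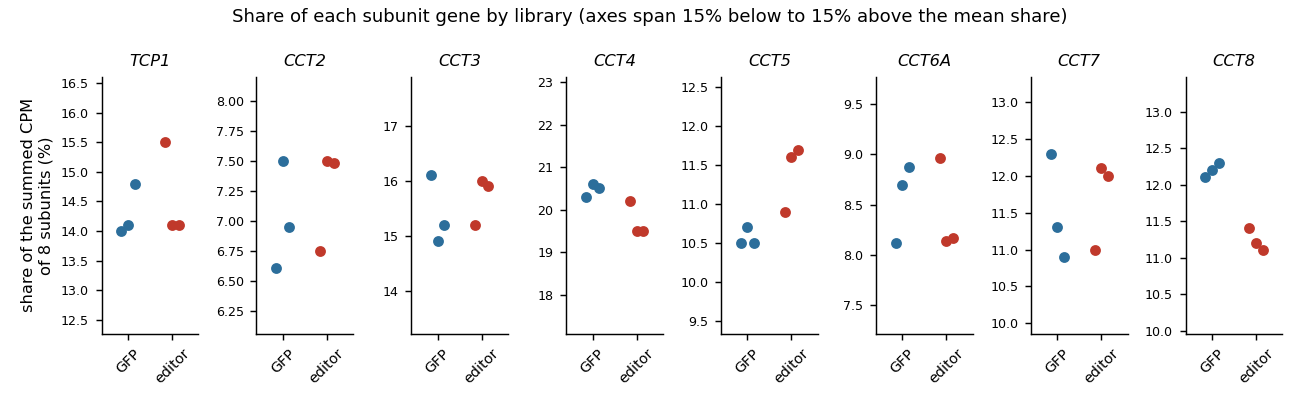
Share of each obligate subunit gene in the summed CPM of the 8 (y axis, percent, each axis spanning 15% below to 15% above the mean share) in GFP (blue) and editor (red) libraries. The groups part for CCT4, CCT5 and CCT8 and overlap for the other 5 genes.

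Some members share their locus or their sequence with other genes, and the labels do not give the strand setting of the counts. TCP1 (chromosome 6, 159778498 to 159789749, GRCh38, GENCODE release 29) overlaps ACAT2, an acetyl-CoA acetyltransferase gene on the opposite strand, over 397 exon bases. It starts 63 bases from MRPL18, a mitochondrial ribosomal protein gene on the opposite strand. MRPL18 stood at 79.2 ± 13.7 CPM in the editor and 76.4 ± 9.83 CPM in the GFP libraries (log2 fold change 0.05), and ACAT2 at 77.4 ± 4.77 and 81.9 ± 7.66 CPM (-0.08). CCT5 overlaps the antisense gene AC012640.4, which averaged 47.8 reads, over 1757 of its 5839 exon bases. Whether reads over this overlap were left out of the CCT5 count was not tested. CCT4 overlaps COMMD1 over 81 exon bases (log2 fold change -0.02) and the antisense gene AC107081.2, which averaged 18.7 reads, over 275 (-0.24, adjusted p = 0.853 by edgeR). TSACC, on the opposite strand within CCT3, shares 0 exon bases with it and stood at 1.02 ± 0.38 CPM in the editor libraries against 0.683 ± 0.17 CPM in GFP libraries (0.58, SE 0.32, adjusted p = 0.64 by edgeR). CCT6B overlaps LIG3, a DNA ligase gene on the opposite strand that averaged 10580 reads, over 180 exon bases, so the low CCT6B count is uncertain. LIG3 stood at 73.4 ± 15.8 CPM in the editor and 93.8 ± 5.83 CPM in the GFP libraries (log2 fold change -0.35, adjusted p = 0.572 by edgeR). ZNF830, on the opposite strand within CCT6B as annotated by GENCODE (34927859 to 34981078), had a log2 fold change of -0.01, with 0 exon bases in common. The RefSeq start of CCT6B shown above lies between 34961411 and 34961710. From that start, ZNF830 (from 34961530) and LIG3 (from 34980494) would lie outside CCT6B, so the 2 annotations differ here. Among other genes with a start within 1 kb, PSPH (next to CCT6A) had a log2 fold change of 0.06, PRADC1 (CCT7) -0.06 and FAM173B (CCT5) 0.42 (adjusted p = 0.535 by edgeR). The small RNA genes SNORA20 and SNORA29 within TCP1 and SNORA22B and SNORA15 within CCT6A averaged under 5 reads in these polyA-selected libraries. The remaining listed neighbours, MIR3913-1 near CCT2, AC022903.2 within CCT6B and AF129075.1 within CCT8, averaged under 10 reads.

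Of 10 annotated pseudogenes of members, 6 averaged at least 10 reads. CCT8P1 had 2931 to 3742 reads, or 4.51% to 4.78% of the CCT8 reads, and its log2 fold change of -0.23 (SE 0.11) lay close to the -0.20 of CCT8. TCP1P1 had 305 to 379 reads (log2 fold change -0.01), CCT5P1 341 to 563 (0.03), TCP1P3 123 to 154 (-0.14), CCT7P1 60 to 154 (-0.07) and CCT4P2 3 to 26 (0.41), and the lowest adjusted p of the 6 by edgeR was 0.603, that of CCT8P1. Whether these reads came from the pseudogenes or from their parents was not tested.

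The partners of CCT were described by the same fit. Prefoldin, which hands unfolded actin and tubulin to CCT, had 0 of 5 tested genes called and a median log2 fold change of -0.07. VBP1 was its most abundant gene, at 216 to 262 CPM in the editor and 230.4 to 257 CPM in the GFP libraries, and PFDN1 had a log2 fold change of -0.10 (SE 0.13). PFDN6 had 0 reads in every library, and PFDN5 was at 0.72 on the log2 fold change scale (SE 0.22, adjusted p = 0.504 by edgeR) at under 1 CPM. Whether so low a count, 31 to 64 reads per library, reflects the expression of PFDN5 was not tested. PFDN6 and the tubulin gene TUBB, also under 1 CPM, sit within the stretch of chromosome 6 from 29 to 34 Mb. There, 82.4% of 182 protein-coding genes had a mean below 10 reads, against 27.7% of all protein-coding genes. These counts therefore do not show whether the genes were expressed. Among regulators of CCT, 0 of 4 tested genes were called. HSF1 stood at 66.9 to 78.4 CPM in the editor and 73.2 to 93.0 CPM in the GFP libraries (log2 fold change -0.16, SE 0.12), and PDCL, a phosducin-like cofactor of G protein beta folding, at -0.12 (SE 0.15).

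Of actin and tubulin genes, the main clients, 15 of 16 were tested and 0 called, with 12 below 0 and a median log2 fold change of -0.13. Over all genes 45.7% were below 0 and the median was 0.025. ACTG1 stood at 2494 to 2660 CPM in the editor and 2701 to 3204 CPM in the GFP libraries, and ACTB at 1425 to 1709 and 1613 to 1939 CPM. The ACTG1 groups did not overlap, as for 14.8% of all genes (log2 fold change -0.17, SE 0.11, adjusted p = 0.665 by edgeR). ACTG1 and ACTB were named for their abundance. The smallest p in the list belonged to ACTA2, the smooth muscle actin (-0.43, SE 0.18), and TUBA4A, an alpha tubulin (0.31, SE 0.13). Of the 12 other clients, 0 were called (median -0.06). VHL, the tumour suppressor whose folding needs CCT, stood at 61.1, 91.3 and 92.6 CPM against 49.2, 59.5 and 57.8 CPM, which is 0.56 as log2 fold change (SE 0.17, adjusted p = 0.504 by edgeR). VHL was called without editor library 1 (0.71, adjusted p = 0.0456 by edgeR), where only the close editor libraries 2 and 3 remain and their spread may be understated. With those libraries summed it was not called (0.46). GNB2, a G protein beta subunit, had -0.28 (SE 0.15). Tubulin cofactors had 0 of 5 called (median -0.03), with TBCE at 0.82 (SE 0.26) on about 1 CPM or less and TBCB at -0.15 (SE 0.12). Whether the low TBCE count, 50 to 154 reads per library, reflects its expression was not tested.

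Other chaperones gave a mixed picture. HSPD1, the chaperonin of mitochondria, stood at 1168, 981 and 1010 CPM in the editor and at 1212, 1211 and 1259 CPM in the GFP libraries. The groups did not overlap, as for 14.8% of all genes, but the log2 fold change of -0.22 (SE 0.11) was not called (adjusted p = 0.603 by edgeR). Of the 5 tested genes of the list of other chaperonins 0 were called, BBS12, a chaperonin-like gene of cilia, among them (0.10, SE 0.13). Of 8 genes of the cytosolic HSP70 and HSP90 system, 7 were above 0, where 45.7% of all genes were below 0. Of these 8 genes 1 was called, against 0.0244% of all genes. It was the inducible HSPA6, which rose from 0.141 to 0.246 CPM in the GFP to 20.2 to 27.8 CPM in the editor libraries (log2 fold change 7.05, SE 0.24, adjusted p = 8.45e-06 by edgeR). DNAJB1, a cofactor of HSP70, stood at 189, 148 and 148 CPM against 103, 94.0 and 92.8 CPM, so its groups did not overlap (0.74, SE 0.13, adjusted p = 0.373 by edgeR). The direct difference between these genes and the CCT genes was not tested.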

How the data were processed

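RNA from 3 editor and 3 GFP libraries was analysed. Per the labels' protocols it was polyA-selected, prepared with a TruSeq mRNA kit and sequenced on a NovaSeq. The submitters' processing notes name HISAT2, featureCounts and limma, without versions. For build, annotation, strand setting and multi-mapping, no label or header gave an answer. Raw read counts per gene were deposited by the authors, with their own limma comparison, of which the first 15273 rows were used.

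Columns were matched to samples by their names, those of the GFP libraries by the letter C and the number. Of 62700 Ensembl IDs, 42343 had a symbol. Counts were fitted with edgeR 4.0.16 (R 4.3.3; TMM, default filter, 20511 genes, quasi-likelihood F-test, Benjamini-Hochberg over all genes, threshold 0.05). Each SE is the log2 fold change over the root of F, and intervals are 95%. Levels are TMM-scaled CPM, with a prior count of 2 before log2. Lengths and positions come from GENCODE release 29 on GRCh38, and alignments from Biopython 1.88. Alternatives included DESeq2 1.42.0 and limma-voom 3.58.1. Library titles call replicates biological but nothing states separate cultures, so p-values measure the spread between these libraries.

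Members and lists were chosen with earlier results of these data known. Named genes are the members, up to 2 genes with the smallest p per partner list, the 5 nearest in pattern (1 of them is not reported here), neighbours and overlapping genes, pseudogenes averaging at least 10 reads, HSPA6 and DNAJB1. VBP1, ACTB, ACTG1, PFDN6, TUBB, HSPH1 and DNAJA1 were chosen after their values were seen.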

Additional observations from a re-analysis of the deposited data

How the results depend on the processing

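Alternatives were scaling by RLE or by library totals, a filter of none or of at least 50 reads in 3 libraries, DESeq2, limma-voom, the replicate block, editor libraries 2 and 3 summed, each library left out and, for counts of calls, an adjusted p of 0.01. Under all of them 0 CCT genes were called, and 6 to 8 of 9 lay below 0. CCT3, CCT4, CCT6A, CCT6B and CCT8 kept their direction. The log2 fold change of TCP1 reversed to 0.014 with editor libraries 2 and 3 summed and ranged from -0.202 to 0.017 over libraries left out (0.017 and 0.012 without editor library 2 or 3). CCT2 reversed to 0.011 with library totals. CCT5 reversed to -0.030 with no filter and ranged from -0.045 to 0.052 over libraries left out (-0.045 without editor library 1, -0.001 without GFP library 2), and CCT7 from -0.120 to 0.002 (without GFP library 1). The median over the 9 genes, -0.059, was -0.011 with library totals, -0.111 with no filter and -0.135 (without editor library 1) to -0.030 over libraries left out. Over all genes, the 5 higher and 0 lower calls became 178 and 129 without a filter and 47 and 32 by DESeq2. Limma-voom gave 3 higher calls, and an adjusted p of 0.01 gave 1. Libraries left out gave 1 to 159 higher and 0 to 54 lower calls, most without editor library 1. The partner lists held 1 call, 2 with no filter or DESeq2, and 1 to 3 over libraries left out (3 without editor library 1). The ratio of highest to lowest level per length was 2.83 (GFP) and 2.62 (editor) by longest transcript, 2.9 and 2.71 by coding length, and 4.35 to 4.6 and 3.98 to 4.28 over libraries left out. DNAJB1 was called with no filter (edgeR adjusted p = 0.0009), by DESeq2 (adjusted p = 0.00128) and without editor library 1 (edgeR adjusted p = 0.0469). It was not called with editor libraries 2 and 3 summed (log2 fold change 0.803). The cause of these moves was not tested. The depth of CCT6B, 129 to 384 reads, limits its precision.

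The replicate block left 1 higher call over all genes and 0 CCT calls. Deviations of same-numbered libraries from their group means correlated at -0.0485, 0.173 and -0.237, and 2 of 6 libraries correlated best with their own number. These values show no pairing by number, and with 3 libraries per group they cannot exclude one.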
